A study of Mus musculus with 13 samples.

Results

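Nephron progenitors are the Six2-expressing cells of the cap mesenchyme that renew themselves or commit to form the nephron. Here they were the nuclei that the deposited annotation of a mouse kidney single-nucleus ATAC-seq (snATAC-seq) data set places in the cluster named NP, 2232 of 28316 nuclei. Nuclei were isolated from whole kidneys, and their accessible chromatin was cut by Tn5 transposase and tagged in droplets. The groups were 2 samples labelled P0, 1 sample at P21 and 2 samples at P56, and the P21 and P56 samples together formed the adult group. The labels name no genotype, treatment, strain or sex for these samples and no number of animals per sample. The p-values of the stage test below thus measure the spread between samples, which may be in part technical. What those of the interaction test measure is said where it is described. The cluster held 1032 and 1005 nuclei in the P0 samples, 52 in the P21 sample and 90 and 53 in the P56 samples. Nuclei of the other 12 main clusters served for comparison, and the clusters named NP_LOH and PT_out were left out of it.

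In the newborn mouse kidney, progenitors condense around the tips of the ureteric bud. Transcription factors such as Six2, Eya1, Osr1, Wt1 and the posterior Hox genes maintain them, and they send Gdnf to the bud. Wnt signals from the bud act through beta-catenin and its TCF and LEF partners, and progenitors that commit turn on Wnt4, Pax8 and Lhx1. In the mouse, nephron formation ends within days of birth.

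A peak was open in a nucleus when at least 1 fragment lay in it, and an open call is such a pair of nucleus and peak. NP-high peaks were defined as open in at least 5% of the NP nuclei in both P0 samples, with a level at least 2-fold that of the highest of the other 12 clusters in both. The level was the number of open calls per 1000000 open calls of the cluster (CPM), with 1 added before folds were taken. Some peaks of this set that the results below return to are printed here from mm10, 5′ to 3′ on the plus strand, as up to 300 bases at the middle of each. Capitals mark matches to the SIX2, the posterior HOX, the WT1 and EGR, or the TCF and LEF letters described with the motif search, and a run without capitals has none of them.
Six2 transcript start, chr17:85688490-85688789: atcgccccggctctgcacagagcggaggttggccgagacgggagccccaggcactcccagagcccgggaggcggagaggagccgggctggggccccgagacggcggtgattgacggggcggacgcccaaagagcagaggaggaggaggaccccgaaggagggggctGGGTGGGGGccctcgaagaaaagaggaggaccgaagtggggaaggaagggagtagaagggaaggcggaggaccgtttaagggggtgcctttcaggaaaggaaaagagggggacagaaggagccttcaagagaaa
Six2 distal peak, chr17:85748502-85748801: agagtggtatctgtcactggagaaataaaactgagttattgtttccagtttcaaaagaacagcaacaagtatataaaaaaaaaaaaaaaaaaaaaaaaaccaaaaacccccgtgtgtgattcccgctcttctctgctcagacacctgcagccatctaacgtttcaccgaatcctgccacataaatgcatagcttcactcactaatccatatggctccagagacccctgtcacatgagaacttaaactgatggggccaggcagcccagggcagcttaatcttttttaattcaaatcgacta
Uncx upstream peak, chr5:139538598-139538880: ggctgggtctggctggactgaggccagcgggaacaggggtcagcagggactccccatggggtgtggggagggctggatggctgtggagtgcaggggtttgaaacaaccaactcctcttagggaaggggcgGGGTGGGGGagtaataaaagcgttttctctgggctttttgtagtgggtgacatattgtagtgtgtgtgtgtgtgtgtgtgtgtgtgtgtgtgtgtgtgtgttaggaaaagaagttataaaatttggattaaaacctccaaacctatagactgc
Uncx downstream peak, chr5:139572496-139572795: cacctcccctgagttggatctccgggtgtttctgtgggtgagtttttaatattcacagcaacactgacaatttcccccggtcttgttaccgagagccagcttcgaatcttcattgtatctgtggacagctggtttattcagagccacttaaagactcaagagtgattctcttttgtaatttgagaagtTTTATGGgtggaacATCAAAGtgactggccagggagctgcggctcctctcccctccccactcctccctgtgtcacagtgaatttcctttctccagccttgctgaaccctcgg
intergenic peak on chromosome 14, chr14:36288961-36289260: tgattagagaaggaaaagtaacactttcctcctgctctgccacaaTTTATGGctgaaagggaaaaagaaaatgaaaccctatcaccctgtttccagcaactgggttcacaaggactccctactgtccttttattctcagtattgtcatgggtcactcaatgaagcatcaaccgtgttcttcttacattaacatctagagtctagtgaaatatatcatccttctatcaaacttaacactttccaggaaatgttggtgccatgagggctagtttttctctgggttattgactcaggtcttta
intronic peak on chromosome 9, chr9:86986886-86987185: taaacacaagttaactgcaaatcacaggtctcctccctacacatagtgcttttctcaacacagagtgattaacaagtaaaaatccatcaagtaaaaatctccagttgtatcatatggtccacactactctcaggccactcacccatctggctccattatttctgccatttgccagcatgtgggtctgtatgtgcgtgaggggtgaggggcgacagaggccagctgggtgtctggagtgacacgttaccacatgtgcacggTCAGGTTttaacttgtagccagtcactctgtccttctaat

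Gene activity was the level, in CPM, of the open calls over the gene body and 2 kb upstream. By this measure the cluster was first read for 5 markers, Six2, Cited1, Uncx, Eya1 and Spock2. The authors named the clusters from accessibility at known marker genes, Uncx and Cited1 among those for progenitors. A high rank of the NP cluster for such genes at P0 was therefore largely fixed in advance. At P0 the NP cluster ranked first of 13 clusters for all 5 in both samples, although for Cited1 in P0 sample 1 the next cluster, distal convoluted tubule, was level with it. The Six2 window (chr17:85684277-85688274, minus strand) held a single peak, and its activity was 56.8 and 56.6 CPM at P0, 0 in the P21 sample and 0 and 2.71 in the P56 samples. Podocytes came next at P0 with 18.6 and 27.3. Uncx, a homeobox gene (chr5:139543494-139548179, plus strand), was at 47.1 and 45.9 CPM at P0, 8.65 in the P21 sample and 30.5 and 24.4 in the P56 samples. It was the only one of the 5 markers for which the cluster ranked first in every sample. In the adult samples that rank rested on 2 open calls at P21, where loop of Henle had 5.76 CPM, and on 10 and 9 at P56. Eya1, a cofactor of SIX2 and its relatives (chr1:14168954-14310235, minus strand), was at 89.1 and 91.9 CPM at P0, 13 in the P21 sample and 27.4 and 21.7 in the P56 samples. Cited1, a transcriptional coactivator of the least committed progenitors (chrX:102247381-102252181, minus strand), was at 29.2 and 30.3, then 4.32, then 9.14 and 8.14, and distal convoluted tubule had 29.0 and 22.1 at P0. Spock2, a matrix proteoglycan (chr10:60106219-60135198, plus strand), was at 76.9 and 72.0, then 13, then 36.6 and 16.3. All 5 genes were therefore lower in each adult sample than in each P0 sample. Because Six2 was at or near 0 in the adult samples, the data there went against the label, and the 195 nuclei of P21 and P56 are called adult nuclei of the NP cluster in what follows.

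The NP cluster made up 17.5% (95% exact binomial interval 16.5 to 18.4) and 18.8% (17.7 to 19.8) of the nuclei in the 13 main clusters at P0. It made up 1.6% (1.2 to 2.09) at P21 and 1.3% (1.05 to 1.59) and 0.855% (0.641 to 1.12) at P56. The intervals cover counting error only. The summed open calls of the cluster numbered 6408014 and 7649123 at P0, 231286 in the P21 sample and 328261 and 368632 in the P56 samples, so adult values rest on far fewer calls. An NP nucleus had a median of 5897 and 7226 open peaks at P0, 4602 in the P21 sample and 3291 and 6855 in the P56 samples. Barcode sequences shared between libraries numbered 477 of 27834, and 74 NP nuclei carried one. In the separate single-cell RNA-seq data, cells named NP made up 1.62% (1.47 to 1.78) of 25138 P0 cells and 1.22% (1.07 to 1.39) of 18498 adult cells, with 1 library a stage and so no test.

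At P0, 2035 peaks were NP-high. They were 6.84% of the 29768 peaks open in at least 5% of NP nuclei in both P0 samples and 0.677% of all 300755 peaks. As clusters were made from these nuclei, these peaks are a description and were not tested. Their fold over the highest other cluster, taken as the lower of the P0 samples, had a median of 2.65 and reached 4-fold or more in 213 peaks. The peak just inside the limit of 2-fold lay at 2.001 and the one just outside at 1.9976. The rule was also applied to a single sample and read in the other. Of the 2734 peaks chosen in P0 sample 1 alone, NP was the highest of 13 clusters in P0 sample 2 for 99.4%, and 76.3% were at least 2-fold there. Of the 3200 chosen in P0 sample 2 alone, those shares in P0 sample 1 were 98.4% and 69.9%.

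NP-high peaks lay away from transcript starts. Only 3.1% of them overlapped a transcript start, against 45.9% of the peaks open in at least 5% of NP nuclei and 7.43% of all peaks. Peaks open to a like level in all clusters cannot enter the set, so the contrast with 45.9% is partly fixed by the rule. These shares are not given for the sets of other clusters. Peaks in introns made up 45.3% of the NP-high set, intergenic peaks 42.1% and exons 9.53%. The median distance to the nearest start was 69359 bp, against 40646 bp over all peaks and 8363 bp over the peaks open in at least 5% of NP nuclei. In width the NP-high peaks had a median of 688 bp, against 414 bp over all peaks and 922 bp over the peaks open in at least 5% of NP nuclei. The cluster with the next highest level was podocytes for 534 of the 2035 peaks (26.2%), loop of Henle for 496 (24.4%) and connecting tubule for 221 (10.9%), while proximal convoluted tubule (PCT) came next for 32 (1.57%).

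The largest fold, 8.12 over the next cluster, belonged to a peak in an intron of Dab1 on chromosome 4 (chr4:103896693-103897460). It was open in 26.1% and 28.8% of P0 NP nuclei, 0% in the P21 sample and 0% and 1.89% in the P56 samples. A peak between genes on chromosome 1 (chr1:165738969-165739560) followed with 8.01-fold. It was open in 19.2% and 25.3% of NP nuclei at P0 and in none of the 195 adult nuclei, which allows a share of up to 1.54%. The intergenic peak on chromosome 14 printed above (chr14:36288717-36289504) had the next largest fold, 7.87, with 13.3% and 15.0% of nuclei at P0, 1.92% at P21 and 0% in both P56 samples. The printed peak on chromosome 9 (chr9:86986640-86987431, 6.65-fold) lay in an intron, at -28502 bp from the start of Ripply2, and was open in 16.5% and 15.3% of nuclei at P0 and in no adult nucleus. Of the 10 peaks with the largest folds, 8 were open in none of the adult nuclei of the cluster, and the other 2 were each open in 1.

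Around Six2, 4 of the 23 peaks within 100 kb of the start were NP-high. The peak over the start (chr17:85687815-85689464) was open in 35.3% and 43.1% of NP nuclei at P0, 0% in the P21 sample and 0% and 1.89% in the P56 samples, and in 7.82% and 13.8% of podocyte nuclei at P0. The distal peak at -60377 bp from the start (chr17:85747869-85749434) was open in 37.7% and 45.1% at P0 and in none of the adult nuclei. Loop of Henle nuclei had it open in 10.1% and 10.4% at P0, and the fold over them was 3.83. Both Six2 peaks were therefore open in a large minority of P0 nuclei, and 1 call was left among 195 adult nuclei. Smaller NP-high peaks lay at -2914 bp (13.5% and 12.9% of nuclei at P0) and -6052 bp (6.01% and 6.27%), and neither was open in an adult nucleus.

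Uncx had more NP-high peaks within 100 kb than any other gene, 7 of 51. The strongest by fold (3.6), at -4755 bp from its start and in an annotated intron (chr5:139538598-139538880), was open in 6.4% and 9.45% of NP nuclei at P0 and in no adult nucleus. Other Uncx peaks were also open in some adult nuclei. The peak at -7437 bp (chr5:139535408-139536706) was open in 29.4% and 34.5% at P0, 0% in the P21 sample and 2.22% and 11.3% in the P56 samples. The printed peak 29151 bp downstream (chr5:139572243-139573047) was open in 15.9% and 21.1% at P0, 0% in the P21 sample and 1.11% and 3.77% in the P56 samples. Of the 18 peaks near Eya1, 2 were NP-high, and the one at -34837 bp from its start (chr1:14344500-14345645, 6.07-fold) was open in 16.2% and 17.6% of nuclei at P0 and in no adult nucleus of the cluster. The Spock2 start was NP-high at 2.06-fold, the only one of 55 peaks near that gene, and none of the 24 peaks near Cited1 was NP-high.

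Motif letters were searched on both strands of the central 300 bp of each peak, as a description. TCF and LEF letters (ATCAAAG) were in 9.09% of NP-high peaks, 5.19% of all peaks and 4.74% of the peaks high in another cluster by the rule used for NP. Stroma 1-high peaks held the TCF and LEF letters in 7.83%, and the exact binomial intervals overlap (6.11 to 9.85 against 7.88 to 10.4 for NP-high). Over whole peaks the shares were 17.7% in stroma 1-high and 17.3% in NP-high peaks. WT1 and EGR letters (GNGTGGGNG) were in 14.6% of NP-high, 9.72% of all and 9.95% of other-cluster peaks, and in 17.8% of podocyte-high peaks. Posterior HOX letters (CCATAAA) were in 7.03%, 4.94% and 4.74%, and in 10.5% of stroma 2-high and 7.47% of stroma 1-high peaks. SIX2 letters (AACCTGA) were in 6.39%, 4.71% and 4.13%, and in 3.72% of podocyte-high and 6.13% of PCT-high peaks. For PAX2 and PAX8 (GTCANGC) the shares were 13%, 10.3% and 10.9%. These 5 were the motifs with the largest ratios to all peaks. Lower shares than in all peaks were found for HNF4 (CAAAGTCCA) with 0.147% against 0.802%, ETS (CCGGAAG) with 1.38% against 2.21%, and AP-1 (TGANTCA) with 8.5% against 10.5%. Over whole peaks, which are wider in the NP-high set, the AP-1 direction turned, with 20.2% against 15.5%, and that of HNF4 (0.59% against 1.21%) and ETS (3.34% against 3.88%) did not. HNF4 factors act in differentiated proximal tubule. The E-box CAGCTG, of TCF21 type, was in 18.1% of NP-high peaks, 19.8% of all peaks and 41.5% of podocyte-high peaks, and TEAD letters (ACATTCC) in 5.5%, 6.06% and 16.2%. Over whole peaks both turned against all peaks, with 35.8% against 28.1% for the E-box and 12.8% against 9.18% for TEAD. The median GC content was 48.7% in NP-high peaks and 46.7% in all peaks. SOX (ACAATGG), FOX (TGTTTAC), CTCF (AGGGGGCNC) and TFAP2 (GCCNNNGGC) letters were in 3.54%, 4.28%, 0.885% and 9.04% of NP-high peaks, against 4.05%, 5.09%, 1.12% and 8.97% of all peaks, and over whole peaks in 8.7%, 10.3%, 2.8% and 17.9% against 6.33%, 7.87%, 2.01% and 14.2%, so the first 3 turned as well. The TCF and HNF4 letters overlap in CAAAG, and a match is not evidence of binding.

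In the printed runs, the Six2 start held a WT1 and EGR match, the Uncx upstream peak a WT1 and EGR match, the Uncx downstream peak both a posterior HOX and a TCF and LEF match, the chromosome 14 peak a posterior HOX match and the chromosome 9 peak a SIX2 match. The distal Six2 peak held none of the 4 in its central 300 bp. Both SIX2 and posterior HOX letters stood in 6 NP-high peaks (0.295%), against 0.225% of all peaks, and neither in 86.9%, against 90.6%.

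**Figure D1:**
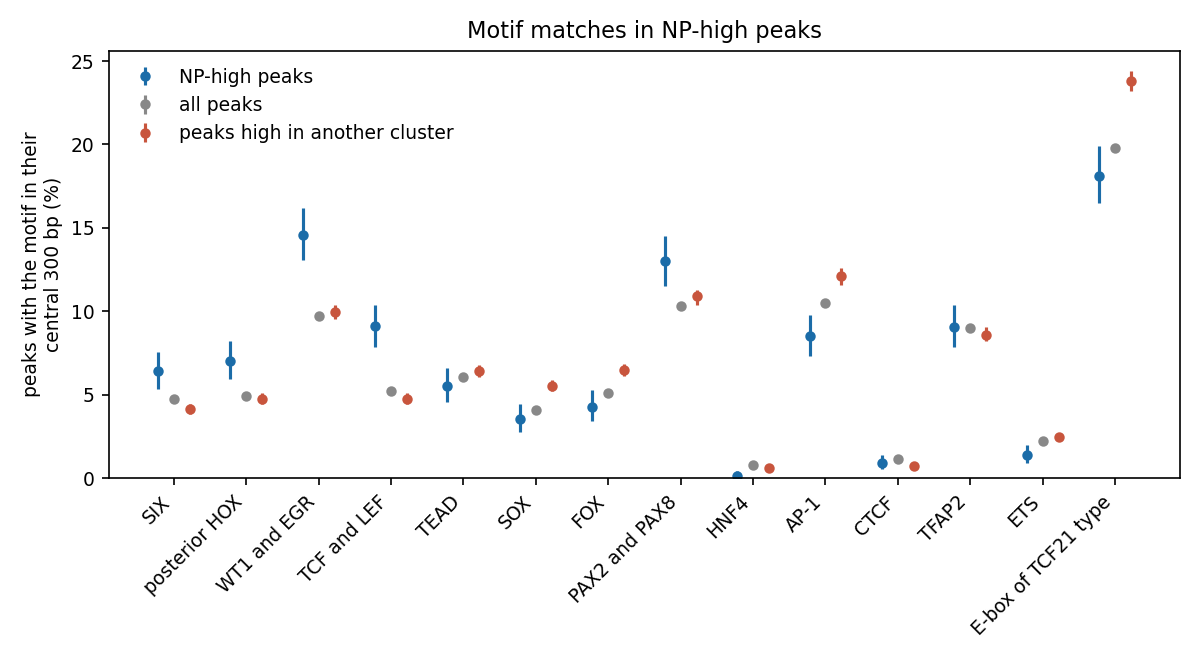
Share of peaks with each motif in the central 300 bp (y axis, percent, with 95% exact binomial intervals), for NP-high peaks, all peaks and peaks high in another cluster. TCF and LEF letters stood at 9.09% of NP-high and 5.19% of all peaks, and HNF4 letters at 0.147% and 0.802%.

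By gene activity, 82 protein-coding genes were NP-high at P0, with at least 10 CPM and at least 1.5-fold the highest other cluster in both P0 samples, which was 0.551% of the 14874 genes at 10 CPM or more. The gene just inside the limit lay at 1.5029-fold and the one just outside at 1.4979. Of a list of 21 cap mesenchyme transcription factors, NP ranked first of 13 clusters in both P0 samples for 13, against 4.07% of the 14874 genes. They were Six2, Cited1, Eya1, Sall1, Osr1, Pax2, Uncx, Meox2, Hmga2, Hoxc9, Hoxc10, Hoxc11 and Hoxd11, and 5 of them (Six2, Eya1, Osr1, Uncx and Meox2) were NP-high. As Uncx and Cited1 served to name the cluster, these counts are a description. NP did not lead for Wt1, where podocytes were higher, with 157 and 179 against 125 and 116 CPM. Among 14 progenitor signals and receptors, NP led only for Rspo1, a secreted enhancer of Wnt signalling, with 96.6 and 94.1 against 42.5 and 38.7 in loop of Henle. Among the 13 of 15 other cap mesenchyme genes at 10 CPM or more, it led for Spock2 and for Cdh2, the gene of N-cadherin. Among 16 of 17 genes of early nephron commitment at that level, it led for Wnt4, with 73.3 and 71.2 against 55.6 and 58.1 in principal cells, and for Greb1, with 147 and 142 against 89.4 and 85.7 in loop of Henle. It led for none of 9 cell-cycle genes. In the marker lists of the other kidney cell types NP led for none of the genes at 10 CPM or more.

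The 10 NP-high genes of the largest fold were in windows that held 1 to 9 peaks. They were Gm4791 (4.15-fold), Oas1h, Insl5, Oog1, Lamp5 (3.51-fold), Defb25, Defb12, Hc, Prph2 and Meox2 (2.37-fold). Gm4791, Oas1h, Insl5, Oog1, Defb25 and Defb12 each had a single peak in their window, so their value is that of 1 peak. Lamp5, a membrane protein gene with 4 peaks, was at 83.3 and 73.3 CPM in NP at P0 and 20.2 and 20.2 in podocytes. Meox2, a homeobox gene with 5 peaks, was at 71.9 and 62.1 in NP and 28.1 and 25.6 in loop of Henle.

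The NP-high peaks took 3.73% and 3.50% of the open calls of NP nuclei at P0, a mean of 3.61% ± 0.163 (SD, n = 2). In the adult nuclei of the cluster they took 0.275%, 0.324% and 0.301%, a mean of 0.300% ± 0.0241 (SD, n = 3). Every adult value lay below every P0 value by more than 10 times. At P0 the next clusters were loop of Henle with 0.706% and 0.624%, podocytes with 0.649% and 0.619%, and connecting tubule with 0.434% and 0.557%, and immune cells were lowest with 0.121% and 0.103%. In the adult samples the NP cluster had the highest share of the 13 main clusters, with stroma next at 0.217% at P21, podocytes at 0.253% and stroma 1 at 0.201% in the P56 samples. The NP_LOH cluster, which is not among the 13, was above it in each adult sample, with 0.278%, 0.36% and 0.305%, and PT_out had 0.251%, 0.351% and 0.178%. The P0-high peaks of the other clusters, chosen by the same rule, were also read in their own adult nuclei. The adult mean divided by the P0 mean was 0.083 for NP, 0.166 for stroma 1 and 0.354 for connecting tubule, and between 0.567 and 1.21 for the other 10 clusters. The connecting tubule and loop of Henle sets held only 11 and 18 peaks. The NP ratio is partly fixed by the choice of peaks at P0 and was not tested.

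**Figure D2:**
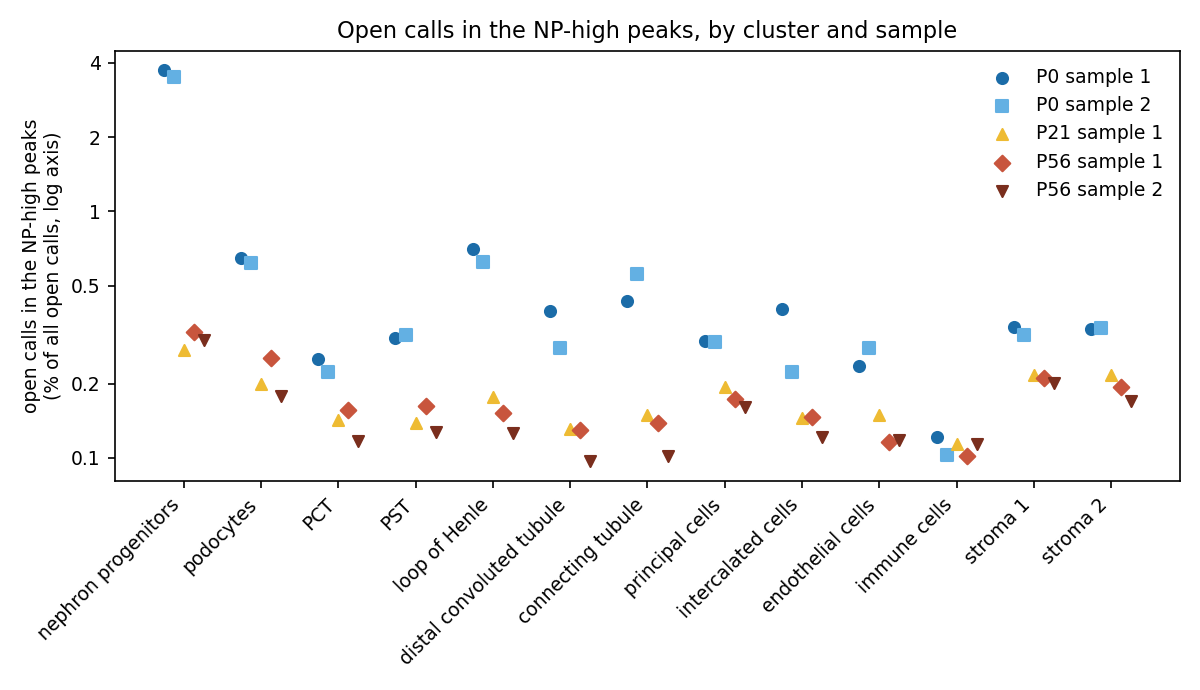
Share of open calls that fell in the 2035 NP-high peaks (y axis, percent, log scale) for 13 clusters, with 1 point a sample. The P0 samples of nephron progenitors sat at 3.73% and 3.50%, and their adult samples between 0.275% and 0.324%.

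Of the 2035 NP-high peaks, 1025 (50.4%) were open in none of the 195 adult nuclei of the cluster. Averaged over the set, an NP-high peak was open in 11.4% and 13.1% of NP nuclei at P0, 0.602% in the P21 sample and 0.58% and 1.03% in the P56 samples. NP was the highest of the 13 clusters in all 3 adult samples for 52 of these peaks and in none of them for 1344. For these counts too the shares of all peaks are not given, and they are a description.

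The same peaks were read in single nuclei. As the peaks were chosen in the P0 nuclei of the cluster, a higher share there than in adult nuclei was largely fixed by the choice, and the values are a description. The median share of a nucleus' open peaks that were NP-high was 4.09% (0.197 to 6.19) and 3.99% (0 to 7.13) at P0. It was 0.267% (0.146 to 0.583) at P21, and 0.326% (0.0975 to 0.661) and 0.299% (0.154 to 0.819) at P56. The 5th percentile of the P0 NP nuclei was 0.758%, and 1 of 195 adult nuclei reached it. Some P0 nuclei of other clusters did too, 24.1% and 14.9% of podocyte nuclei and 26.8% and 23.2% of loop of Henle nuclei. The spread among P0 NP nuclei was wider than counting gives. With each nucleus thinned to 1000 open peaks, 38.1 ± 13.7 and 35.5 ± 14.6 of them (mean ± SD over 1004 and 993 nuclei) were NP-high, where a binomial draw gives an SD of 6.06 and 5.85. In adult nuclei the values were 2.7 ± 1.52, 3.23 ± 1.69 and 3.37 ± 2.1, with binomial SDs of 1.64, 1.79 and 1.83. Thinning left out 28 and 12 nuclei at P0 and 2, 6 and 1 in the adult samples. Barcodes with more than 1 nucleus were not searched for, so their part in nuclei of low share was not tested.

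**Figure D3:**
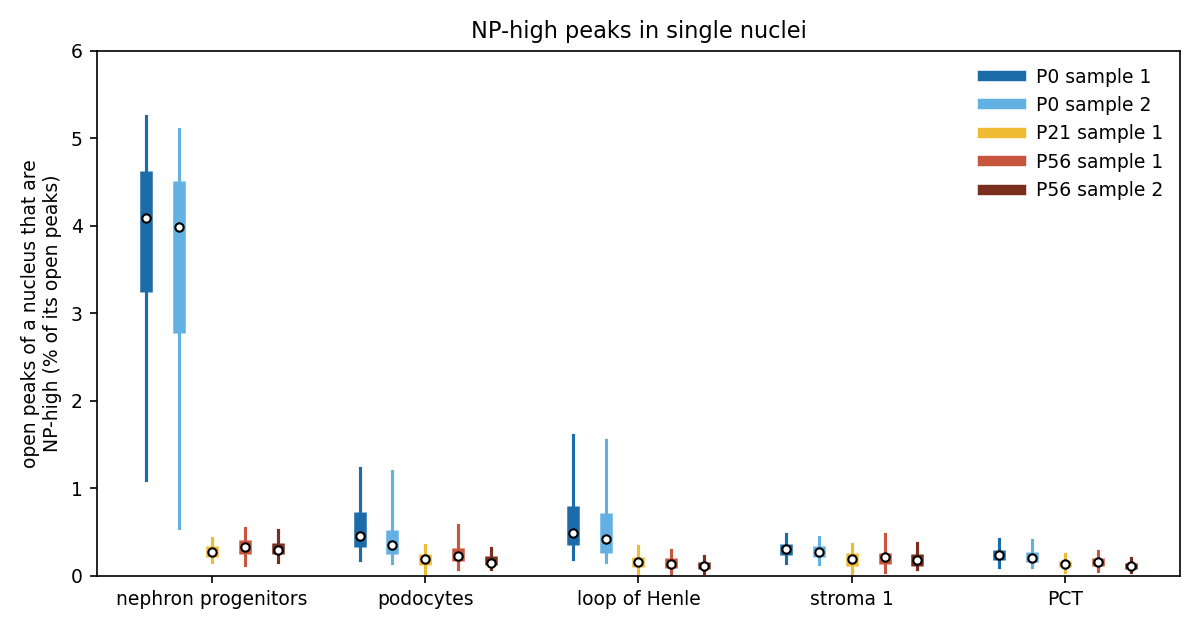
Share of each nucleus' open peaks that were NP-high (y axis, percent), with the median (circle), the middle 50% (thick bar) and the 5th to 95th percentile (line), for 5 clusters in 5 samples. NP medians were 4.09% and 3.99% at P0 and 0.267% to 0.326% in adult samples.

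The P0 nuclei were then divided, in each sample, into 4 bins of 251 to 258 nuclei by this share, a grouping chosen after the data were seen, and gene activity was summed over the peaks that are not NP-high. The bins come from the same nuclei, so their values are a description. Several genes of commitment, though not all, were most active in the bin with the fewest NP-high peaks. From the lowest to the highest bin, Lhx1, a homeobox gene of the renal vesicle, went 40.9, 26.3, 13.9 and 3.66 CPM in P0 sample 1 and 36.9, 35.0, 21 and 9.23 in P0 sample 2. Emx2 went 38.4, 19.2, 12 and 9.51, and 56.5, 29.4, 15.3 and 8.57. Pax8 went 157, 111, 106 and 92.2, and 181, 115, 99.9 and 98.9. All 3 genes were ordered the same way in both samples. Wnt4 was instead lowest in that bin, with 53.7, 65.3, 63.9 and 71.7, and 53.8, 61.1, 74.1 and 60.0, and Cdh6 had no such order, with 102, 100, 103 and 121, and 92.9, 101, 90.3 and 101. Some progenitor genes went the other way from Lhx1. Wt1 went 104, 127, 134 and 136, and 86.5, 116, 127 and 140, and Cited1 went 20.7, 28.5, 34.8 and 33.6, and 23.2, 31.2, 33.5 and 33.6. Spock2 stayed near one level in P0 sample 1 (29.3, 28.5, 29.8 and 27.8) and went 15.3, 25.6, 28.2 and 23.7 in P0 sample 2. Summed over the lists, early commitment genes were at 1220, 987, 845 and 836 in P0 sample 1 and 1210, 1050, 912 and 863 in P0 sample 2. The cap mesenchyme transcription factors were at 1290, 1530, 1560 and 1580, and 1160, 1500, 1520 and 1540. The progenitor signals and receptors were at 3010, 3070, 2930 and 2810, and 3110, 3070, 2960 and 2920. Fgfr2, with 628 peaks in its window, had 1770 and 1870 of the 3120 and 3170 CPM of this list over all P0 nuclei of the cluster, so the sum mostly follows that gene. Markers and peaks of other cell types moved with the bins too. Loop of Henle markers were at 191, 144, 136 and 124, and 184, 138, 125 and 133, and proximal tubule markers at 361, 320, 334 and 315, and 411, 331, 294 and 317. PST-high peaks took 0.108%, 0.0504%, 0.0481% and 0.0423%, and 0.137%, 0.05%, 0.0433% and 0.0443% of open calls, and podocyte-high peaks 0.689%, 0.575%, 0.57% and 0.513%, and 0.669%, 0.556%, 0.524% and 0.511%. Podocyte markers were at 628, 599, 579 and 612, and 588, 606, 580 and 529. The part of other cell types in the bins was not tested. The bins also differed in depth, with medians of 6026, 7074, 5932 and 4968 open peaks in P0 sample 1 and 6907, 8561, 8140 and 5813 in P0 sample 2, and the part of depth was not tested.

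**Figure D4:**
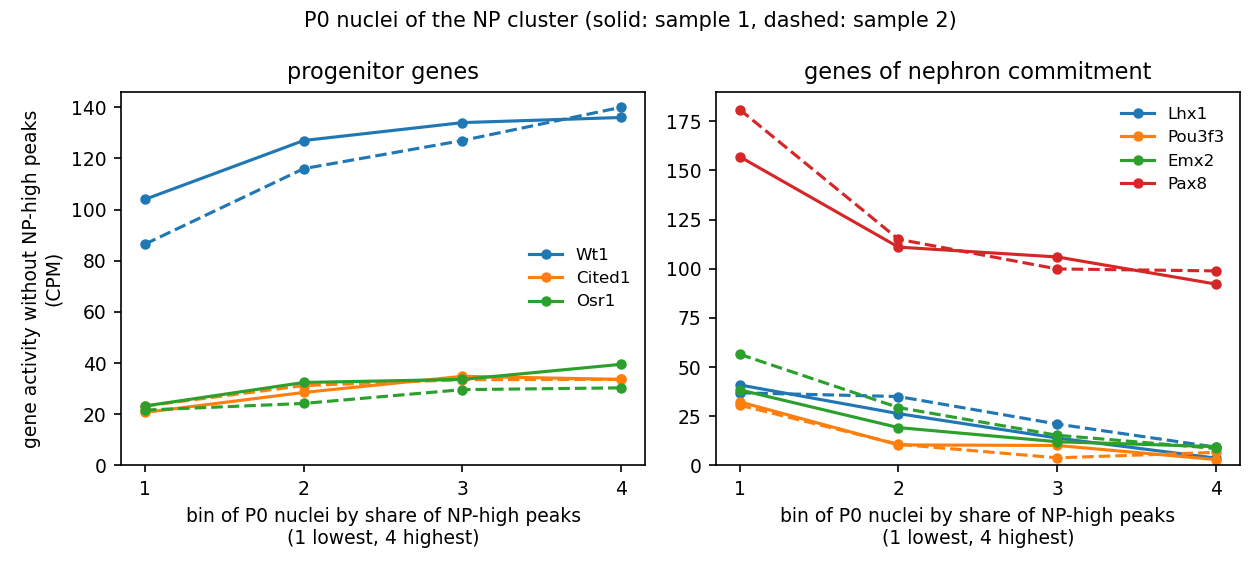
Gene activity without NP-high peaks (y axis, CPM) in 4 bins of P0 NP nuclei ordered by their share of NP-high peaks (x axis). Progenitor genes Wt1, Cited1 and Osr1 are at left and commitment genes Lhx1, Pou3f3, Emx2 and Pax8 at right. The genes are a selection, and Wnt4, Cdh6 and Spock2, which did not follow these orders in both samples, are not shown. Lhx1 went from 40.9 to 3.66 and from 36.9 to 9.23 between the lowest and the highest bin, and Wt1 from 104 to 136 and from 86.5 to 140.

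Across 41322 peaks, the log levels of P0 NP nuclei correlated most with P0 podocytes (Pearson r = 0.896) and P0 loop of Henle (0.875), and with adult nuclei of the NP cluster at 0.73. The adult nuclei of the cluster correlated most with adult principal cells (0.838) and adult loop of Henle (0.837). Peaks are not independent replicates, and open peaks that most cells share enter every one of these values.

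P0 (n = 2) and adult (n = 3) sums of NP nuclei were tested with edgeR, with Benjamini-Hochberg adjustment at 0.05. The authors clustered nuclei after a Harmony correction across samples, and each sample has a single stage. Which nuclei the cluster holds is thus not independent of stage. Of 12173 genes tested, 2537 (20.8%) were more active at P0 and 2250 (18.5%) in adult. Of 10623 peaks, 2168 (20.4%) were more open at P0 and 2037 (19.2%) in adult. The count filter kept mostly peaks over transcript starts, with 2879 of the 10623 outside them. This split therefore describes the tested peaks and not all peaks of the cluster. With no filter, 53404 of 293309 peaks were called more open at P0 and 6654 in adult. A gene or peak could pass the filter through the samples of a single stage, where its counts are high. Genes named below with few adult calls passed it through the P0 samples alone. Without P0 sample 1 the genes numbered 1973 and 1277, and without P0 sample 2 they numbered 2226 and 1482. Leaving out an adult sample changed which peaks had enough counts to be tested, and the peak calls were 21348 and 10043 without the P21 sample, 20559 and 7421 without P56 sample 1, and 15953 and 7789 without P56 sample 2. The sums were scaled to the open calls of the cluster, so they do not follow the number of nuclei, and a change in which cells the cluster holds and a change within the same cells cannot be told apart.

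The transcription factors of the cap mesenchyme were the list with most calls at P0. Of 20 tested, 15 were higher at P0 and 2 in adult, against 20.8% and 18.5% of all genes, and the median log2 difference (P0 minus adult) was 1.24. Six2, as given above, had 797 open calls at P0 and 1 in adult, a ratio of levels of 52.6 (95% counting interval 9.42 to 2080, adjusted p = 5.8e-14). Tcf21, a factor of stroma and podocytes, had 566 and 1 (ratio 37.4, 6.68 to 1480, adjusted p = 9.9e-11). Wt1, a zinc finger factor of progenitors and podocytes, was at 125 and 116 CPM at P0, 8.65 in the P21 sample and 0 and 16.3 in the P56 samples, a log2 difference of 3.94 ± 0.344 (SE, adjusted p = 2e-17). Meox2 was at 71.9 and 62.1 CPM at P0, 13 in the P21 sample and 0 and 5.43 in the P56 samples (log2 3.76 ± 0.42, adjusted p = 1.1e-12). Hmga2, a chromatin protein of fetal cells, was at 336 and 308, then 60.5, then 85.3 and 73.2 (log2 2.25). Hoxd11, a posterior Hox gene of the kidney, was at 97.1 and 92.0, then 17.3, then 18.3 and 35.3 (log2 2.07), and Osr1 at 31.8 and 26.3, then 4.32, then 9.14 and 10.9 (log2 1.88). Of the markers, Eya1 differed by 2.21 ± 0.271 (adjusted p = 3.7e-11), Cited1 by 2.11 ± 0.444 (adjusted p = 4.7e-05) and Uncx by 1.17 ± 0.298 (adjusted p = 0.00076). In none of these 10 genes did the groups overlap. They were named for large differences or as markers, and the share of all genes without overlap is not given. The 2 genes higher in adult, named after their values were seen, were Pax2 (log2 -0.45) and Hoxa10 (-0.45). Pax2, which both progenitors and collecting duct use, was at 176 and 177 CPM at P0, 393 in the P21 sample and 180 and 255 in the P56 samples. Its call was lost in 3 of 5 fits without 1 sample, with -0.25 and adjusted p = 0.23 without the P21 sample, and that of Hoxa10 in 4 of 5, with -0.37 and adjusted p = 0.25 without P56 sample 2.

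Signals of the progenitors included several with higher activity at P0. Of 14 signals and receptors tested, 7 were higher at P0 and 2 in adult (median log2 0.56), against 20.8% and 18.5% of all genes, so the count in adult was near that of genes in general. Rspo1 was at 96.6 and 94.1 CPM at P0, 4.32 in the P21 sample and 6.09 and 5.43 in the P56 samples (log2 4.27 ± 0.381, adjusted p = 4.9e-17). Robo2, the receptor of Slit proteins, was at 158 and 133, then 38.9, then 21.3 and 8.14 (log2 2.96). Gdnf, the ligand that draws out the ureteric bud, was at 62.9 and 59.0, then 4.32, then 9.14 and 13.6 (log2 2.78). Itga8, an integrin needed for Gdnf expression, was at 97.5 and 84.8, then 38.9, then 15.2 and 16.3 (log2 2.21). In all 4 the P0 samples lay above every adult sample. These 4 had the largest differences of the list, and the share of all genes with such an order is not given. The genes higher in adult were Npnt, the nephronectin gene (log2 -0.87 ± 0.182, adjusted p = 4.4e-05), and Notch2 (log2 -0.38), whose call was lost in 3 of 5 fits without 1 sample, with -0.30 and adjusted p = 0.4 without P0 sample 2. Of 9 other cap mesenchyme genes tested, 6 were higher at P0 and the other 3 were not called (median log2 1.11), against 20.8% of all genes higher at P0. The largest were Cdh11, an adhesion molecule (94.7 and 93.3, then 17.3, then 6.09 and 2.71, log2 3.77), Spock2 (log2 1.85 ± 0.278, adjusted p = 2.5e-08), Cdh2 (log2 1.69) and Traf1 (log2 1.51).

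Early commitment genes split in both directions. Of 14 tested, 5 were higher at P0 and 6 in adult (median log2 0.11), against 20.8% and 18.5% of all genes. Pou3f3, a factor of loop and distal tubule, was at 14.4 and 12.9 CPM at P0, 143 in the P21 sample and 57.9 and 103 in the P56 samples (log2 -2.70 ± 0.243, adjusted p = 7.5e-17). Irx2, a homeobox gene of the forming tubule, was at 19.7 and 21.4, then 64.9, then 88.3 and 86.8 (log2 -1.85). Emx2 was at 20.3 and 28.1, then 117, then 42.6 and 92.2 (log2 -1.59), and Pax8 at 118 and 124, then 311, then 189 and 217 (log2 -0.80). Irx1 (log2 -1.33) was also among the 6. Those higher at P0 were Greb1 (147 and 142, then 21.6, then 30.5 and 38.0, log2 2.35), Lef1, a mediator of Wnt signals (92.7 and 93.2, then 21.6, then 27.4 and 13.6, log2 2.32), Bmp2, Ccnd1 and Cdh6, of which Cdh6 lost its call in 3 of 5 fits without 1 sample (log2 0.24, adjusted p = 0.49 without P56 sample 2). Wnt4, which starts the change to epithelium, was at 73.3 and 71.2 CPM at P0, 56.2 in the P21 sample and 54.8 and 70.5 in the P56 samples, with adjusted p = 0.14. As a sum over its 17 genes, the list was at 990 and 1020 CPM at P0, ranks 5 and 3 of the 13 clusters, and at 1340, 1120 and 1230 in adult nuclei, the highest of the 13 clusters in each adult sample. Of 7 cell-cycle genes tested, 0 passed the threshold in edgeR (adjusted p from 0.052 to 0.96) and 0 in DESeq2, and 1, Ube2c, had an unadjusted p under 0.05.

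**Figure D5:**
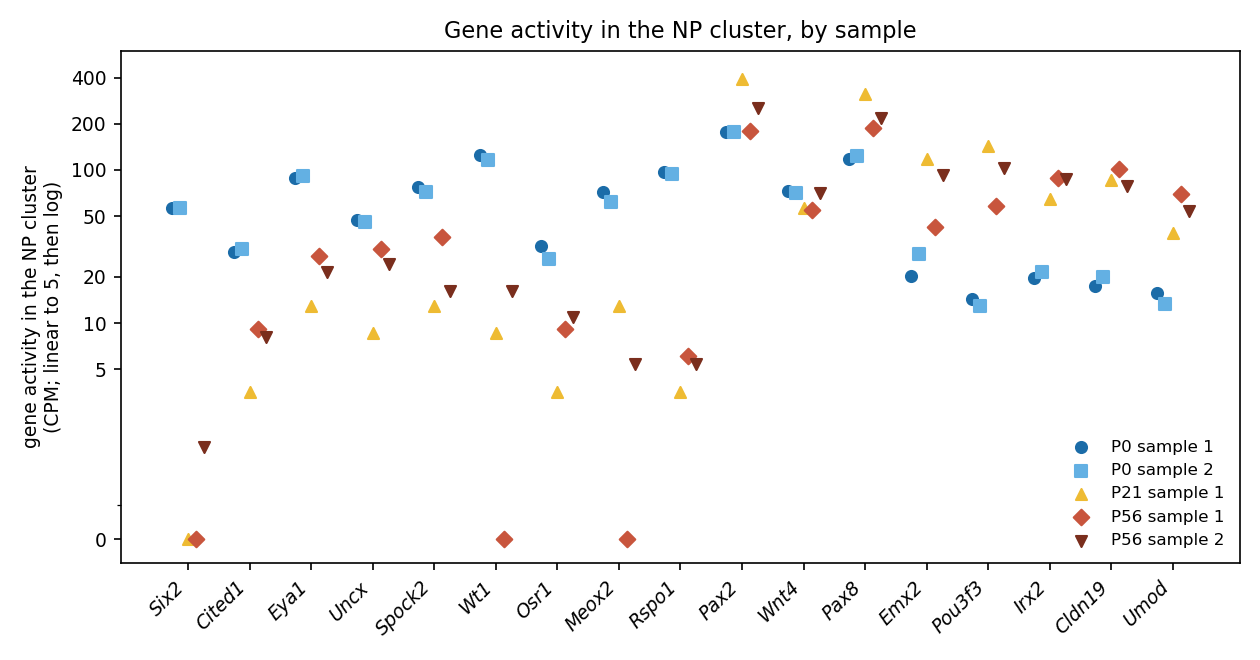
Gene activity of 17 genes in the NP cluster (y axis, CPM, linear to 5 and log above), with 1 point a sample. Six2, Eya1 and Wt1 sat higher in both P0 samples than in every adult sample, and Emx2, Pou3f3 and Irx2 lower.

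Markers of other kidney cell types were read in the same nuclei. All 6 loop of Henle markers tested were higher in adult nuclei of the cluster (median log2 -1.51), against 18.5% of all genes. Cldn19, a claudin of the thick limb, was at 17.5 and 20 CPM at P0, 86.5 in the P21 sample and 101 and 78.7 in the P56 samples (log2 -2.09 ± 0.227, adjusted p = 3.5e-13). Umod, the gene of uromodulin, was at 15.8 and 13.3, then 38.9, then 70.1 and 54.3 (log2 -1.81), and below loop of Henle nuclei, which had 131, 148 and 186 in the adult samples. Cldn16 (log2 -2.77), Slc12a1 (-1.21), Cldn10 and Egfl6 were the others, and the calls of Slc12a1 and Egfl6 were lost without P0 sample 2, with adjusted p = 0.063 and 0.14. Summed over its 7 genes, this list was at 150 and 145 CPM at P0 and 458, 402 and 401 in adult nuclei, rank 2 or 3 of the 13 clusters, where loop of Henle nuclei had 1150, 1050 and 1120. Of 3 distal and connecting tubule markers tested, Slc12a3, the thiazide-sensitive transporter, was higher in adult (22.2 and 22.5, then 64.9, then 128 and 138, log2 -2.24), and Wnk4 and Slc8a1 were higher at P0, calls that were lost in 5 and 4 of 5 fits without 1 sample (adjusted p = 0.2 and 0.44 without P56 sample 2). Of 6 principal cell and ureteric bud markers, Elf5 (1.44), Ret (1.25) and Gata3 (1.15) were higher at P0 and Wnt9b (-1.61) and Krt8 (-1.09) in adult on the log2 scale, and Gata3 lost its call without P56 sample 2 (adjusted p = 0.11). The part of these other cell types in the adult values was not tested. All counts of 2 to 6 markers here and in the next paragraph stand against 20.8% of all genes higher at P0 and 18.5% higher in adult, so that 1 call among 6 is near the share of genes in general.

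Of 6 proximal tubule markers tested, Slc13a3 (log2 -1.31), Hnf4a (-0.88) and Slc34a1 (-0.78) were higher in adult and Cubn (0.76) at P0. DESeq2 called 1 of the 6. Without P56 sample 2 all 4 calls were lost, with adjusted p = 0.72, 0.17, 0.59 and 0.054. The summed level of the 10 genes was 366 and 363 CPM at P0, 368 in the P21 sample and 338 and 594 in the P56 samples, against 2170, 1750 and 2260 in adult PCT nuclei. Of 6 podocyte markers tested, 4 were called higher at P0 and 0 in adult (3 and 0 by DESeq2). Nphs1, the nephrin gene, was among the 4 (37.3 and 34.3, then 4.32, then 6.09 and 5.43, log2 2.85 ± 0.467, adjusted p = 2.5e-07), and so were Ptpro and Magi2, whose calls were lost in 4 and 2 of 5 fits without 1 sample (adjusted p up to 0.12 and 0.18). Of 6 stromal markers, Meis1 (175 and 150, then 30.3, then 24.4 and 19.0, log2 2.91 ± 0.261, adjusted p = 6.4e-17), Foxd1 (log2 1.76), Pdgfra (1.07) and Pdgfrb (0.97) were higher at P0, the last pair not without P56 sample 2 (adjusted p = 0.16 and 0.093). Of 6 endothelial markers, Plvap (1.96), Egfl7 (1.59) and Kdr (1.29) were higher at P0 and Esam (-0.88) and Flt1 (-0.42) in adult. Kdr, Esam and Flt1 lost the call without a single sample (adjusted p up to 0.07, 0.13 and 0.24). Of 2 intercalated cell markers tested, Atp6v0d2 was higher in adult (-0.97), and of 2 immune markers, Csf1r (-0.97), calls that were lost in 3 and 4 of 5 fits (adjusted p up to 0.1 and 0.25). Genes of these lists with open calls at P0 and 0 in adult nuclei were Mgp (306 calls at P0, at least 6.73-fold higher there against a floor of 3 calls over the adult samples), Pvalb (97 calls, at least 2.13-fold), Dlk1 (58 calls, at least 1.28-fold), C1qa (22 calls), Slc22a30 (7 calls) and Foxi1 (5 calls), and for the last 3 no difference was detectable at this depth.

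The 10 genes with the largest fitted differences at P0 were Lamp5, Six2, Caln1, Adam23, Tcf21, Shc2, Defb25, Ednra, Asphd2 and Onecut2, all with 1 or 2 open calls over the adult samples. They passed the count filter through the P0 samples alone. A difference toward P0 was therefore largely fixed in advance for them, and the ranking is a description. Lamp5 had 1095 open calls at P0 and 1 in adult (ratio of levels 72.3, counting interval 12.9 to 2860, adjusted p = 1.1e-16), and Adam23, of a family of adhesion proteins, 1215 and 2 (ratio 40.1, 11.1 to 332, adjusted p = 5.6e-17). Ednra, the endothelin receptor A gene, had 943 and 2 (ratio 31.1, 8.59 to 257). At P0, NP ranked first of the 13 clusters in both samples for Lamp5, Six2, Adam23, Shc2 and Defb25, in 1 of them for Asphd2, and in neither for Caln1, Tcf21, Ednra and Onecut2. The 10 with the largest differences in adult were Cd163l1, Sult1d1, Tmem265, Nxpe5, Gm42715, Rnf186, Smim6, Lypd2, Eppk1 and Apela. Tmem265 lies inside Gm42715, so the pair shares peaks. Apela, which encodes a peptide ligand of the apelin receptor, was at 11.5 and 8.50 CPM at P0, 108 in the P21 sample and 101 and 94.9 in the P56 samples (log2 -3.20 ± 0.249, adjusted p = 4.2e-20). It was higher in adult nuclei of the cluster than in each of the other 12 clusters, of which principal cells had the most, with 51.5, 68.8 and 71.1. Eppk1, a cytolinker of epithelia, was at 7.18 and 7.45, then 99.4, then 82.3 and 65.1 (log2 -3.31 ± 0.285, adjusted p = 9.9e-18), and loop of Henle nuclei had 92.1, 127 and 138. Sult1d1, a sulfotransferase, was at 1.25 and 3.40, then 38.9, then 67.0 and 65.1 (log2 -4.46).

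After the data were seen, genes were also listed for which the adult nuclei of the cluster led all other clusters by 1.5-fold, at 10 CPM or more, in all 3 adult samples. There were 15, and 0 of them were NP-high at P0. As 0.551% of the genes at 10 CPM or more at P0 were NP-high, a count of 0 is near that share. Slc4a11, a membrane transporter gene, was at 24.2 and 25.5 CPM at P0, 69.2 in the P21 sample and 57.9 and 57.0 in the P56 samples, where the highest other cluster had 31.7, 28.5 and 18.9. Cfap52, a gene of motile cilia, was at 21.4 and 23.4, then 82.1, then 94.4 and 84.1, against 43.6, 38.5 and 40.8. Sept4, a septin gene, was at 40.6 and 45.5, then 99.4, then 134 and 92.2, against 54.6, 65.4 and 58.0. Gjb5, a connexin gene, was at 12.2 and 12.7, then 60.5, then 54.8 and 43.4, against 33.1, 23.3 and 13.4 in principal cells. Igfbp2, an IGF-binding protein gene of the early nephron, was at 38.1 and 39.6, then 21.6, then 36.6 and 32.6, against 11.7, 11.9 and 7.48 in the highest other cluster, and did not pass the stage test (adjusted p = 0.2). The list also held Gm42715, Cd163l1, Rnf223, Tmem265, Sorcs3, Tnfaip6, Psd4 and Rbfox3. Some of these rest on few open calls. In the P21 sample and then the P56 samples, Rnf223 had 4, 7 and 6 and Cd163l1 had 5, 10 and 12. Over all genes at 10 CPM or more, the cluster ranked first in all 3 adult samples for 170 of 12204 (1.39%), and 2 of the 82 NP-high genes were first in all adult samples.

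Sequence letters were also compared between the peaks called in the stage test that lie outside transcript starts, 842 higher at P0 and 1353 in adult, of which 1352 lie on a chromosome whose sequence was searched. WT1 and EGR letters were in 23.5% of the first and 11.6% of the second, posterior HOX letters in 6.41% and 3.92%, and TCF and LEF letters in 5.46% and 2.0%. TEAD letters were in 6.65% and 12.9% and AP-1 letters in 7.13% and 14.1%. Over whole peaks these 5 kept their order. PAX2 and PAX8 letters were in 10.3% of the peaks higher at P0 and 14.1% of those higher in adult, and over whole peaks in 34.2% and 35.5%. SIX2 letters were in 4.51% (95% exact binomial interval 3.21 to 6.14) and 5.99% (4.79 to 7.39), with 4.94% of all peaks tested outside transcript starts, so the intervals overlap, and over whole peaks the order turned, with 18.8% and 14.9%. The median GC content of these peaks was 52.7% and 51.3%.

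Differences between stages that all cell types share were removed by comparing the stage difference in NP with the mean of that in the other 12 clusters, with the sample as a block. The block takes out the spread between samples. The p-values of this interaction test measure the spread that remains between the cluster sums within samples, and clusters of the same sample are not independent replicates. Of 15485 genes, the NP difference lay further toward P0 in 937 (6.05%) and further toward adult in 1288 (8.32%). Peaks at 0 in every library of a cluster at a stage were left out. They include the 1025 of 2035 NP-high peaks open in no adult nucleus of the cluster. Of 33753 peaks, 952 (2.82%) lay further toward P0 and 1721 (5.1%) toward adult. The split was 35.6% toward P0, 21.4% with DESeq2 size factors and 10.6% with DESeq2, and does not cover the peaks left out. Those size factors moved the median log2 value of all peaks from 0.101 to -0.045. Leaving out 1 sample lowered these counts. Genes toward P0 and toward adult numbered 541 and 657 without P0 sample 1, 684 and 761 without P0 sample 2, 753 and 921 without the P21 sample, 554 and 892 without P56 sample 1, and 587 and 1053 without P56 sample 2. Peaks numbered 263 and 781, 359 and 842, 472 and 1232, 354 and 931, and 230 and 884 in that order. Of the cap mesenchyme transcription factors, 7 of 18 tested lay further toward P0 and the other 11 were not called. Six2 had the largest value among them (log2 4.45 ± 0.894, adjusted p = 0.00021), followed by Tcf21 (3.27), Wt1 (2.75 ± 0.652, adjusted p = 0.0018) and Hmga2 (1.36 ± 0.266, adjusted p = 0.00014), and Hoxd11, Eya1 and Hoxc9 were the others. Cited1 (0.90, adjusted p = 0.35), Uncx (-0.16, adjusted p = 0.87) and Spock2 (0.37, adjusted p = 0.54) did not pass. Of signals, Robo2 (2.20 ± 0.371, adjusted p = 1.4e-05), Itga8 (1.32) and Fgfr1 (0.82) lay further toward P0 and Notch2 (-0.46) toward adult. Rspo1 (1.76, adjusted p = 0.11) and Gdnf (1.07, adjusted p = 0.27) did not pass. Of commitment genes, Irx2 (-1.99), Pou3f3 (-1.88 ± 0.318, adjusted p = 1.4e-05), Emx2 (-1.19) and Wnt4 (-0.66) lay further toward adult and Greb1 (1.44), Lef1 (1.24) and Ccnd1 (1.02) toward P0. Of 12 other cap mesenchyme genes tested, Tmem100 (2.84), Cdh11 (2.14) and Cdh2 (1.06) lay further toward P0 and Igf2bp1 (-0.91, adjusted p = 0.031) and Igf2bp3 (-0.92, adjusted p = 0.004), which encode RNA-binding proteins, toward adult. Igf2bp1 was nevertheless higher at P0 in the stage test within NP (80.2 and 92.4, then 43.2, then 64.0 and 78.7, log2 0.56, adjusted p = 0.021), a call lost in 3 of the 5 fits without 1 sample (0.33, adjusted p = 0.25 without the P21 sample). Its interaction call was lost in 4 of 5 (-0.67, adjusted p = 0.23 without P56 sample 2), that of Igf2bp3 in 2 of 5 (-0.69, adjusted p = 0.067 without the P21 sample) and that of Tmem100 in 1 of 4 (2.13, adjusted p = 0.088 without P56 sample 2). Of the loop of Henle markers, Cldn19 (-2.83 ± 0.418, adjusted p = 9.3e-07) and Cldn10 (-1.0) lay further toward adult. The calls of Six2, Wt1, Hmga2, Robo2, Itga8, Irx2, Pou3f3, Greb1 and Cldn19 held in every fit without 1 sample that could be run for them. That of Tcf21 was lost in all 3 it allowed (2.79, adjusted p = 0.11 without P56 sample 1), and those of Hoxd11, Eya1, Hoxc9, Notch2, Wnt4, Emx2, Lef1, Ccnd1 and Cldn10 in at least 1 of theirs (adjusted p up to 0.33, 0.18, 0.4, 0.22, 0.42, 0.083, 0.09, 0.064 and 0.076).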

How the data were processed

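Per the labels and methods, the authors aligned reads to mm10 with Cell Ranger ATAC 1.1.0, filtered barcodes, clustered nuclei with SnapATAC and Harmony and pooled the nuclei of a cell type to call peaks with MACS2. The counts used here are sums of the deposited binarized matrix (1 for an open peak), which was not scaled for depth. Other deposited columns hold positions, samples and cluster names, and single-cell RNA-seq cluster names (Cell Ranger 3.1.0, Seurat 3.0).

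Open calls were summed over the NP nuclei of each sample, from 231286 to 7649123 calls, and gene activity used GENCODE M21. Sums were tested in R 4.3.3 with edgeR 4.0.16 (TMM scaling, quasi-likelihood test, BH at 0.05, features kept by filterByExpr with a minimum count of 10 and total of 15). SEs are the absolute log2 value divided by the square root of F. The interaction test left out features at 0 in every library of a cluster at a stage, a choice made after the fit was seen. Clusters against each other are described, not tested. The tests were tried on simulated data. Python 3.11.15, numpy 2.4.6, pandas 2.3.3, scipy 1.17.1, pysam 0.24.0 and matplotlib 3.10.9 did the rest.

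The cluster, gene lists and motifs were chosen with earlier results of these data known. Named were the 4 genes of a list with the largest values and the 5 markers, the 10 genes or peaks with the largest values, and others where the text says so or a count was small. Alternatives were DESeq2 1.42.0, its size factors, no filter, each sample left out, equal nuclei, thinning, replicate blocks, promoter windows, and other limits for NP-high. Bulk ATAC-seq was not analysed here. Some items are not reported here.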

Additional observations from a re-analysis of the deposited data

Results flagged for a closer look

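The stage difference of the NP cluster differed from that of the other 12 clusters, by the interaction test in edgeR with Benjamini-Hochberg adjustment at 0.05, in 937 genes and 952 peaks further toward P0 and in 1288 genes and 1721 peaks further toward adult. Of the genes named in the text, the following passed, with the log2 stage difference in NP minus the mean of the other 12 clusters. Further toward P0 were Six2 (4.45), Caln1 (4.32), Adam23 (3.70), Lamp5 (3.49), Tcf21 (3.27), Hc (3.15), Ednra (2.94), Tmem100 (2.84), Wt1 (2.75), Robo2 (2.20), Cdh11 (2.14), Meis1 (2.00), Plvap (1.71), Greb1 (1.44), Hmga2 (1.36), Itga8 (1.32), Lef1 (1.24), Cdh2 (1.06), Eya1 (1.05), Hoxd11 (1.05), Ccnd1 (1.02), Wnk4 (1.02), Hoxc9 (0.84) and Fgfr1 (0.82). Further toward adult were Tmem265 (-4.07), Gm42715 (-3.50), Apela (-3.06), Cldn19 (-2.83), Rnf186 (-2.63), Eppk1 (-2.57), Cfap52 (-2.08), Slc4a11 (-2.01), Irx2 (-1.99), Pou3f3 (-1.88), Sept4 (-1.55), Atp6v0d2 (-1.49), Csf1r (-1.24), Emx2 (-1.19), Cldn10 (-1.0), Rbfox3 (-0.99), Slc12a3 (-0.95), Krt8 (-0.93), Igf2bp3 (-0.92), Igf2bp1 (-0.91), Psd4 (-0.88), Flt1 (-0.86), Sorcs3 (-0.85), Wnt4 (-0.66) and Notch2 (-0.46). Tmem100, Igf2bp1 and Igf2bp3 were named after their values were seen. Beside the losses given above, some of these calls were lost without 1 sample. That of Sorcs3 was lost in 2 of 5 such fits (-0.69, adjusted p = 0.31 without P0 sample 2), that of Csf1r in 4 of 5 (-0.96, adjusted p = 0.26 without P56 sample 1), that of Slc12a3 in 3 of 5 (-0.79, adjusted p = 0.12 without P56 sample 1), that of Krt8 in 3 of 5 (-0.72, adjusted p = 0.14 without P56 sample 1) and that of Lamp5 in 1 of the 2 it allowed (2.87, adjusted p = 0.12 without the P21 sample). Those of Cdh2 (0.73, adjusted p = 0.14), Wnk4 (0.66, adjusted p = 0.17) and Plvap (1.51, adjusted p = 0.078) were lost without P56 sample 2, and those of Atp6v0d2 (-1.44, adjusted p = 0.065) and Cdh11 (1.89, adjusted p = 0.055) without P56 sample 1. No group of the stage comparison had the 4 samples that a search for a single outlying sample needs.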

How the results depend on the processing

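Of the values of 104 named genes in the stage test, 948 of 1072 kept direction and side of the threshold, 115 lost the call, 5 gained it and 4 reversed, all of genes not called, Sall1 (-0.038 with no filter, and -0.147 to 0.094 without 1 sample) and Psd4 (-0.158 to 0.195 without 1 sample). Of 49 in the interaction test, 417 of 493 did, 75 lost it and Flt1 reversed in the promoter window (0.052). Stage calls higher at P0 and in adult numbered, for peaks, 53404 and 6654 with no filter, 704 and 774 with equal numbers of NP nuclei, and 0 and 0 of 128 testable when thinned (edgeR, 12 at an unadjusted p under 0.05), and for genes 1497 and 962 with equal numbers, 415 and 273 when thinned and 954 and 758 in promoter windows, where fewer nuclei or counts enter. Without 1 sample they were 2152 to 21348 and 2127 to 10043 peaks and 1973 to 3000 and 1277 to 2516 genes. Interaction calls for peaks toward P0 were 300 with DESeq2 and 577 with its size factors, and for genes 120 and 305 in promoter windows. Without 1 sample they were 230 to 472 and 781 to 1232 peaks and 541 to 753 and 657 to 1053 genes. NP-high peaks numbered 942 at a minimum share of 10%, 941 with a pseudocount of 5, 7983 against the mean of the other clusters, 213 at 4-fold, 11 when thinned and 2734 to 3200 from 1 P0 sample, and NP-high genes 1072 against the mean, 45 in promoter windows and 117 to 126 from 1 sample. The 4-fold peaks took 0.478% of NP open calls at P0 and 0.0192% in adult.

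Ratios of the motif share in NP-high to all peaks, over whole peaks, which are wider in the NP-high set, were SIX2 1.91, posterior HOX 1.94, WT1 and EGR 1.79, TCF and LEF 2.12, TEAD 1.39, SOX 1.37, FOX 1.31, PAX2 and PAX8 1.65, AP-1 1.31, CTCF 1.39, TFAP2 1.26 and E-box 1.28, and for 4-fold peaks SIX2 1.89, FOX 1.11, PAX2 and PAX8 1.05, HNF4 0.585, TFAP2 0.837, ETS 0.0 and E-box 0.737. Otherwise the cause of these differences was not tested.

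The samples share only a number. The differences of sample 1 from sample 2 at P0 and P56 correlated at 0.0988 over 12173 genes and 0.0623 over 10623 peaks, in 2 pairs. With the replicate block, 2174 and 2051 peaks and 2498 and 2160 genes were called by stage. Without the block for sample, the interaction called 652 and 1414 peaks and 677 and 958 genes. Of the named genes, Notch2 and Flt1 lost the stage call with the replicate block, and Eya1, Hoxd11, Notch2, Cdh2, Wnt4, Lef1, Igf2bp1, Sorcs3 and Csf1r the interaction call without the block for sample. Depth limits the adult values, as 195 nuclei allow shares of up to 1.54% at a count of 0.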
